A study of Mus musculus with 11 samples.

Results

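Cell cycle and proliferation genes were followed in bulk RNA-sequencing of whole mouse pancreatic islets. The group holds 36 of the 19329 gene IDs in the deposited table and was chosen by gene name, from known roles in the cell cycle. It consists of 13 markers of mitosis and proliferation, 7 DNA replication genes, 4 genes of the step from G1 to S phase, 5 D cyclins and their kinases, and 7 brakes on division. Libraries came from male mice aged 14 weeks on chow, with 6 wild-type and 5 mutant libraries. The mutants, named PDX1P33T, carry PDX1 P33T/P33T, a homozygous proline-to-threonine change in the transcription factor PDX1 made by CRISPR/Cas9 in C57BL/6N mice. The study's figure legend gives 6 individual mice per biological replicate, so a library may be a pool of several mice. Islets were cultured for a day or more after isolation. The n and p-values therefore refer to the spread between libraries, which may be partly technical. The study calls the wild-type mice littermates but bred its cohort from homozygous crosses. Genotype and litter may therefore go together, which the labels do not settle. The sequencing asked which transcripts differ between mutant and wild-type islets.

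Cells enter the cycle when D cyclins activate the kinases Cdk4 and Cdk6, which phosphorylate the retinoblastoma protein and release E2F factors. E2F drives genes of S phase, such as the Mcm helicase subunits, and a later set of genes, driven through CHR and CCAAT promoter elements and the factor FOXM1, carries cells through mitosis. Adult beta cells divide rarely. Cyclin D2 and Cdk4 are the pair best known to be needed for their expansion, while the inhibitors p27, p18, p16 and p15 and the tumour suppressor menin hold them back.

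RefSeq windows of GRCm38.p6, read 5′ to 3′ on the strand of the gene, cover the 250 bases before the start and were given for 28 of the 36 genes. Both strands were searched for E2F letters (TTCCCGC or else TTGGCGC, likewise TTCGCGC, likewise TTGCCGC), for the CHR letters TTTGAA and for the letters of the CCAAT box. E2F matches can overlap each other and the CCAAT box. A proliferation marker, a mitotic activator, a replication gene and the D cyclin kinase are printed as an example of each role, with every match in capitals. The *Mki67* window is chr7:135716380-135716629 (minus strand), that of *Cdc20* chr4:118437344-118437593 (minus), that of *Mcm6* chr1:128359706-128359955 (minus) and that of *Cdk4* chr10:127063285-127063534 (plus).
Mki67: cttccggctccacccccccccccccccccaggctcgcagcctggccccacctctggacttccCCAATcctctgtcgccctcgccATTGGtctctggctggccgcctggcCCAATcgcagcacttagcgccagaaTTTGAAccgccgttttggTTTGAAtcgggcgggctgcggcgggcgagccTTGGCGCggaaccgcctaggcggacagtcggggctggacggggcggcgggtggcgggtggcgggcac
Cdc20: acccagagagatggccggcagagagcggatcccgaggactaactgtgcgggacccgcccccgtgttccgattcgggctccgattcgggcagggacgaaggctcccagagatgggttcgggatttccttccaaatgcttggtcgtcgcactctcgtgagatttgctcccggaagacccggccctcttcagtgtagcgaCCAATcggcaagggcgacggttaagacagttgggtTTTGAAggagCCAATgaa
Mcm6: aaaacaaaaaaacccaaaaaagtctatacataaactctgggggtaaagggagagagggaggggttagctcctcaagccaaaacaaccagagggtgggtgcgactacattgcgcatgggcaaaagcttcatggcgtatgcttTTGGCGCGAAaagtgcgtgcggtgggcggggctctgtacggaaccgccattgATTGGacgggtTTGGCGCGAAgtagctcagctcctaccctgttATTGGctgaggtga
Cdk4: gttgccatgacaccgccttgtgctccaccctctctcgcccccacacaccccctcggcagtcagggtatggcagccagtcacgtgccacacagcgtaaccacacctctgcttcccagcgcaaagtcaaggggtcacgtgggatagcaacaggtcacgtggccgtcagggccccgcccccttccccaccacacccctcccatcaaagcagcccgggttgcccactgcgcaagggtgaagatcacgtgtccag

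The *Mki67* window holds all 3 kinds of match, with CHR letters starting at positions -116 and -98 from the start and an E2F match starting at -67. *Cdc20* has its CHR letters at -18 between CCAAT boxes at -53 and -8. In *Mcm6* 2 stretches, starting at -109 and -46, each read as an E2F match on both strands, and there is no CHR match. *Cdk4* has no match of any kind. CCAAT letters were found in 9 of 10 mitosis markers and 6 of 6 replication genes with a window, against 34.5% of 27025 genes in the table. CHR letters were in 5 of 10 mitosis markers (*Mki67*, *Top2a*, *Ccnb2*, *Cdk1* and *Cdc20*) and in 1 of 6 replication genes (*Mcm2*), against 16.3% of all genes. E2F letters were in 3 of 10 mitosis markers, 3 of 6 replication genes (*Mcm5*, *Mcm6* and *Mcm7*) and 2 of 6 brakes (*Cdkn2a* and *Cdkn2c*), against 7.97% of all genes. Among the other brakes, *Cdkn2b* had CHR letters (1 of 6), and *Cdkn1b* and *Men1* had CCAAT letters (2 of 6). Of the 3 G1/S genes with a window, 1 (*Cdk2*) had E2F and CCAAT letters. The 3 D cyclin and kinase genes with a window (*Ccnd3*, *Cdk4* and *Cdk6*) had none of the 3. A match describes letters and was not tested as a binding site.

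Reads counted per library ranged from 19311937 to 37094286, so that a single read on 1 kb of gene amounts to between 0.0270 and 0.0518 FPKM, the unit of reads scaled to gene length and library depth. Mutant values stand on the row of their own gene ID, but for most genes the wild-type values were displaced to another gene's row. Only 13 of the 1712 genes that could be checked by their reads held their own wild-type values as deposited. A wild-type row could be identified for 25 of the 36 genes, 2 of them (*Mcm3* and *Cdkn2c*) by the reads in the study's supplementary list, 13 by gene length with a level within 4-fold and 10 by gene length with a level within 2-fold. A larger difference than those limits could not have been seen in these 13 and 10 genes. The other 11 genes are given in the mutant alone. The supplementary list was used in a form of 1749 rows, although the study describes it as covering every gene detected. Below, outside the supplementary list means outside these rows.

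Markers of islet cells were abundant in the mutant libraries, with the hormone genes *Ins1* at 83478 ± 11125 FPKM (mean ± SD, n = 5), *Gcg* at 10618 ± 1336 and *Sst* at 5720.1 ± 775. *Pdx1* carries a missense change, so its level does not check the genotype labels. Wild-type replicates 2 and 3 stood apart in markers of other cells. The 4 endothelial markers with a wild-type row, of 5, summed to 389.6 FPKM in wild-type replicate 3, against 70.9 to 161 in the other wild-type libraries and 53.1 to 123 in the mutant. The 4 macrophage and lymphocyte markers, of 12, summed to 57.8 and 55.9 in wild-type replicates 2 and 3, against 22.3 to 30.9 in the other wild-type libraries and 17.3 to 27.6 in the mutant. They were *Ptprc*, *Cd68*, *Adgre1* and *Csf1r*, without the lymphocyte markers *Cd3g*, *Cd79a* and *Ms4a1*. *Cd68* was the largest of them in the mutant, at 19.1 ± 3.39 FPKM. The 5 stromal markers, of 6, summed to 36.4 and 19.4 in wild-type replicates 2 and 3, against 5.25 to 7.65 and 3.72 to 8.49. Schwann cell markers were also highest there, at 9.07 and 5.68. Islet hormones differed as well. *Sst* and *Ppy* were highest in wild-type replicate 3, at 10589 and 14937, against at most 7479 and 10060 in the other 10 libraries. The alpha cell sum was lowest in wild-type replicate 2, at 4707. *Cd3e*, which defines T cells, was not analysed here, and none of the 7 acinar markers had a wild-type row.

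In mutant islets *Ccnd2*, *Cdk4*, *Ccnd1* and several brakes had the highest levels among the cell cycle genes, and most mitosis markers, with *Cdk6*, the lowest. *Ccnd2*, which encodes cyclin D2, had the highest level of the 36 genes at 44.7 ± 2.80 FPKM (n = 5), above 95.7% of the 18963 gene IDs with values in at least 4 mutant libraries. *Cdk4* followed at 34.2 ± 5.38, and *Cdkn1a*, which encodes the p53-induced inhibitor p21, at 18.9 ± 4.12. At the other end stood *Bub1*, a spindle checkpoint kinase, at 0.0635 ± 0.0356 and *Aurkb*, the kinase of the chromosomal passenger complex, at 0.0654 ± 0.0259, above 8.75% and 8.99% of gene IDs. The median gene ID was at 1.77 FPKM. Of the 36 genes, 15 lay under 1 FPKM, and 12 of these were among the 13 mitosis markers. Neighbours in the order did not overlap in 3 places, below *Cdk4*, below *Pcna* and below *Mcm7*, and all other neighbours overlapped. Exons of 15 of the 36 genes overlap those of another gene in GENCODE vM21, *Cdk4* with *Tspan31* and *Cdc20* with *Elovl1* on the opposite strand among them, and the strand setting of the counts is uncertain.

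**Figure D1:**
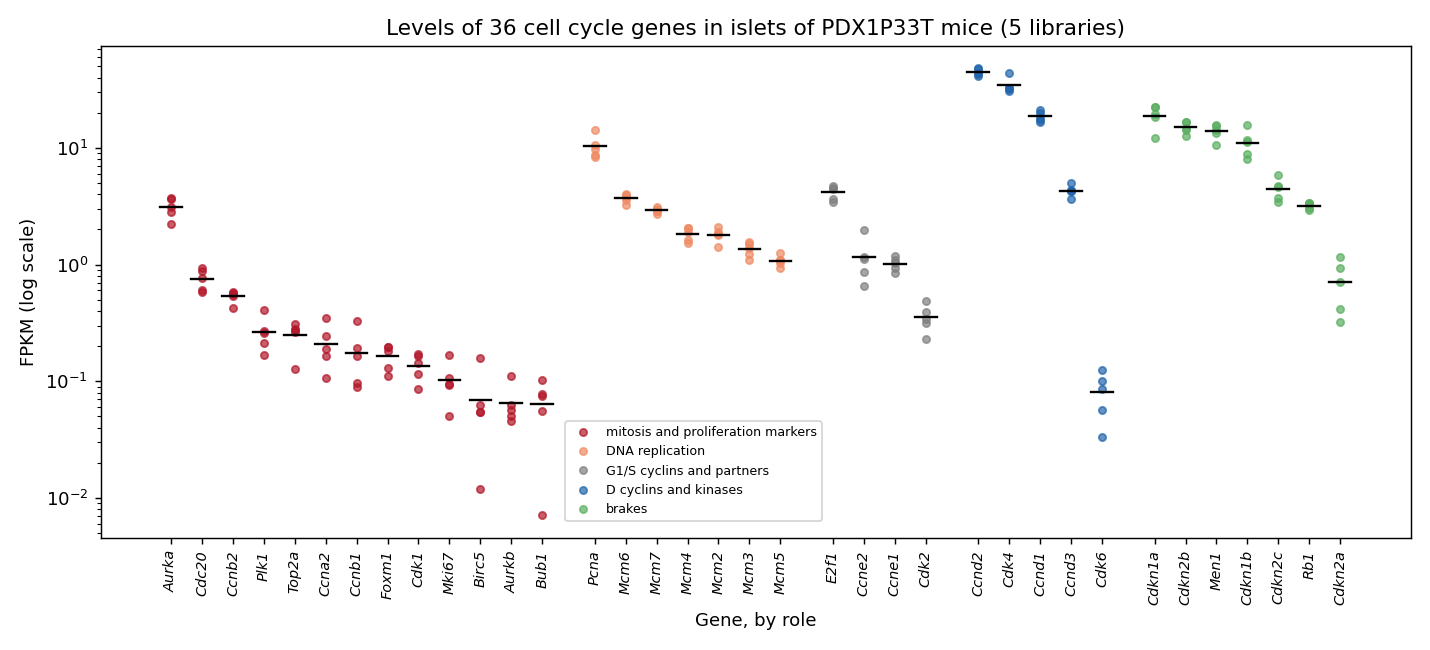
FPKM of the 36 genes in the 5 PDX1P33T libraries (points) with their means (black lines), on a log axis and grouped by role. All mitosis markers but Aurka lie under 1 FPKM on average, while Ccnd2, Cdk4, Ccnd1, Pcna and 4 brakes lie above 10.

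Among the D cyclins and kinases, *Ccnd2* measured 44.0, 42.7, 48.1, 41.6 and 47.2 FPKM in mutant replicates 1 to 5, and *Cdk4* 32.3, 43.8, 30.6, 32.7 and 31.8. These ranges overlapped in replicate 2 of *Cdk4* alone. *Ccnd1*, encoding cyclin D1, was at 16.7, 18, 21.2, 17.3 and 19.8, and *Cdk4* lay above it and above *Cdkn1a* in every library. *Ccnd3*, encoding the remaining D cyclin, was at 5.01, 3.66, 4.23, 4.36 and 4.28. *Cdk6*, the other partner kinase of the D cyclins, was at 0.0803 ± 0.0362, from 11 to 43 reads a library. The 2 kinases were thus far apart, *Cdk4* above 94.3% of gene IDs and *Cdk6* above 10.7%.

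Of the brakes, *Cdkn1a* measured 22.2, 12.2, 18.3, 22.4 and 19.5 FPKM, lowest in replicate 2. *Cdkn2b* (p15) followed at 14.97 ± 1.747, *Men1* (menin) at 13.9 ± 2.00 and *Cdkn1b* (p27) at 11.1 ± 3.00. *Cdkn2c* (p18) at 4.45 ± 0.972 and *Rb1* (the retinoblastoma protein) at 3.20 ± 0.203 were lower. *Cdkn2a*, which encodes p16 and the p53 activator Arf from overlapping transcripts counted together here, was lowest at 0.707 ± 0.347, from 13 to 32 reads a library. It lies beside *Cdkn2b* on chromosome 4, and the FPKM of *Cdkn2b* exceeded that of *Cdkn2a* in all 5 libraries.

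Of the replication genes, *Pcna*, the sliding clamp of DNA polymerase, was at 8.74, 14.2, 10.5, 8.39 and 9.69 FPKM, highest in replicate 2, and 2 pseudogenes of it are annotated that could share its reads. The 6 Mcm subunits of the replicative helicase ran from 3.71 ± 0.323 (*Mcm6*) and 2.92 ± 0.167 (*Mcm7*) to 1.35 ± 0.188 (*Mcm3*) and 1.08 ± 0.116 (*Mcm5*), with *Mcm4* at 1.83 ± 0.238 and *Mcm2* at 1.80 ± 0.249. *Mcm7* lay above *Mcm4* in every library. Of the G1/S genes, *E2f1* was at 4.18 ± 0.585, the E-type cyclins *Ccne2* and *Ccne1* at 1.15 ± 0.5004 and 1.01 ± 0.137, and their kinase *Cdk2* at 0.354 ± 0.0962.

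Mitosis markers were close to the floor of the counts. *Mki67*, which encodes the proliferation antigen Ki-67, measured 0.107, 0.0503, 0.0955, 0.0928 and 0.167 FPKM, from 12 to 62 reads on a gene of 10061 bases. *Top2a*, the topoisomerase that untangles chromosomes, was at 0.251 ± 0.0719, and *Cdk1*, the mitotic kinase, at 0.136 ± 0.0356. *Birc5* (survivin) was at 0.0685 ± 0.0545, from 1 to 20 reads. The exception was *Aurka*, the centrosomal kinase, at 3.72, 2.21, 2.83, 3.66 and 3.09 FPKM, from 133 to 288 reads. It lay above *Cdc20*, the next of the markers at 0.756 ± 0.158, in every library. The median coefficient of variation of the 13 markers was 34.0%, against 22.0% from counting alone, and that of the 5 D cyclins and kinases was 11.1%, against 2.03% from counting. Counting error covers reads only, not independent molecules.

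Between genotypes none of the 25 genes with a wild-type row was called. The call required an adjusted p (Benjamini-Hochberg, limma) no higher than 0.05 together with a 1.5-fold change, and it was met by 0.0243% of the 8243 genes fitted as higher and by 0.0243% as lower in the mutant. Log2 fold changes (mutant minus wild-type, on FPKM + 0.1) ran from -0.55 (*Birc5*) to 0.43 (*Ccnb2*), 10 above 0 and 15 below, with a median of -0.12 against -0.05 over all fitted genes. The added 0.1 draws the values of genes at low FPKM towards 0. At an unadjusted limma p under 0.05 there were 2 genes, *Mcm3* and *Cdkn2c*, and by the exact permutation test 1, *Cdkn2c*. Both were placed through the supplementary list, where 87.3% of genes had such a p, against 5.72% of the other fitted genes, so their p-values go with the way they were placed. Of the 23 genes placed by length and level 0 had an unadjusted p under 0.05. The 2 genotypes overlapped in all 25 genes, while 2.94% of fitted genes did not overlap. Outside the supplementary list, where 23 of the 25 genes lie, that share was 0.441%.

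**Figure D2:**
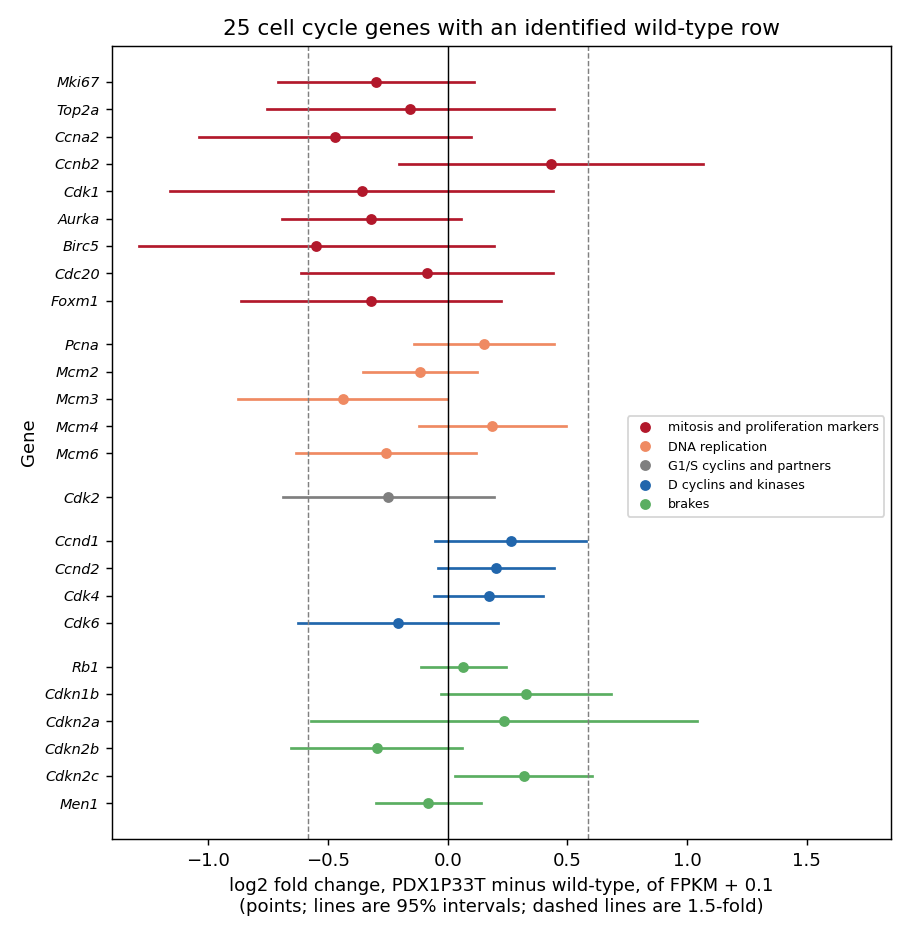
Log2 fold change of 25 genes (points) with 95% intervals (lines), PDX1P33T minus wild-type on FPKM + 0.1, grouped by role. Dashed lines mark 1.5-fold. Intervals of the mitosis markers are wide, and those of 8 genes, among them Ccnd2, Cdk4, Rb1 and Men1, lie inside the dashed lines.

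A missing call did not have the same weight for every gene. The 95% interval lay within 1.5-fold in either direction for 8 of 25 genes (*Pcna*, *Mcm2*, *Mcm4*, *Ccnd1*, *Ccnd2*, *Cdk4*, *Rb1* and *Men1*), against 53.1% of all fitted genes, and within 2-fold for 20. None of the 9 mitosis markers was among the 8. The 20 included *Mki67*, *Top2a*, *Foxm1* and *Cdk6*, with mutant means from 0.0803 to 0.251 FPKM. At such levels the added 0.1 narrows the interval, which then does not bound the change in FPKM itself. All 8 genes were placed by length and level, *Pcna*, *Mcm2*, *Mcm4* and *Men1* within 2-fold and the others within 4-fold. Rows with a larger difference would not have been accepted, so these intervals are in part set by the placement. Of the 25 genes only *Mcm3* and *Cdkn2c* were placed without a level limit, and neither was among the 8. Genes with small differences are under-represented among those placed, with a p above 0.7 in 2.71% of the fitted genes outside the supplementary list.

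*Ccnd2* ranged in wild-type libraries from 28.9 over a median of 40.2 to 47.3 FPKM, and the mutant libraries, listed above, from 41.6 to 48.1. Its log2 fold change was 0.20 ± 0.11 (SE, limma adjusted p = 0.627, exact permutation p = 0.0714, n = 6 and 5). *Cdk4* had wild-type values from 27.1 over 29.9 to 35.5 and a log2 fold change of 0.17 ± 0.11 (adjusted p = 0.712). For *Ccnd1* the wild-type values ran from 11.1 over 16.0 to 21.8, with a log2 fold change of 0.26 ± 0.15 (adjusted p = 0.630). In all 3 genes wild-type replicate 3 was the lowest of the 11 libraries. For *Ccnd1* and *Ccnd2* wild-type replicate 1 alone reached the mutant values, and for *Cdk4* wild-type replicates 1 and 6 lay within the mutant range. *Cdk6* had a log2 fold change of -0.21 ± 0.19 (adjusted p = 1) at under 0.3 FPKM throughout.

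*Cdkn2c* (p18) was between 3.02 and 3.99 FPKM in wild-type, with a median of 3.46, and at 3.68, 5.87, 4.66, 3.40 and 4.64 in the mutant. Mutant replicates 2, 3 and 5 lay above every wild-type library and replicates 1 and 4 within their range. The log2 fold change was 0.32 ± 0.13 (limma p = 0.0331, adjusted p = 0.490, exact permutation p = 0.0476). *Cdkn1b* (p27) showed the same libraries on top, with 8.86, 15.7, 11.2, 8.05 and 11.6 in the mutant against 7.48 to 11.1 in wild-type, and a log2 fold change of 0.33 ± 0.16 (adjusted p = 0.572). *Cdkn2b* (p15) went the other way, from 18.8 ± 5.22 in wild-type to 14.97 ± 1.747, with a log2 fold change of -0.30 ± 0.16 (adjusted p = 0.634), and its highest value, 28.5, was in wild-type replicate 3. For *Rb1* (0.07 ± 0.08) and *Men1* (-0.08 ± 0.10) the adjusted p was 1. The interval for *Cdkn2a*, from -0.57 to 1.04, covered a rise and a fall alike.

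*Mcm3* ran in wild-type from 1.14 over 1.83 to 3.16 FPKM and in the mutant was 1.49, 1.10, 1.22, 1.56 and 1.38. Its log2 fold change was -0.44 ± 0.20 (limma p = 0.0489, adjusted p = 0.522, exact permutation p = 0.0606). *Mcm6*, from 3.63 over 3.85 to 7.59 in wild-type, had -0.26 ± 0.17 (adjusted p = 0.790). Both genes were highest in wild-type replicate 3. The other subunits did not share this order, since *Mcm4* had 0.19 ± 0.14 and was lowest in that library, and *Mcm2* had -0.12 ± 0.11. *Pcna* had 0.15 ± 0.14 (adjusted p = 1). For *Cdk2* the log2 fold change was -0.25 ± 0.20 (adjusted p = 0.968).

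Of the 9 mitosis markers with a wild-type row 8 had a log2 fold change below 0, and *Ccnb2* alone lay above. The 9 were measured in the same libraries and are not separate observations. The share below 0 over all fitted genes was not counted, and their median was -0.05. Over the 18 further mitosis genes with a wild-type row, described below, the median was 0.04. *Mki67* measured between 0.0682 and 0.211 FPKM in wild-type, with a median of 0.149, and had a log2 fold change of -0.30 ± 0.19 (adjusted p = 0.738, exact permutation p = 0.136). *Ccna2*, the S and G2 phase cyclin, ran from 0.147 over 0.309 to 0.620 in wild-type and was 0.246, 0.165, 0.106, 0.189 and 0.345 in the mutant, with -0.47 ± 0.26 (adjusted p = 0.634). *Aurka*, from 3.13 over 3.58 to 5.54, had -0.32 ± 0.17 (adjusted p = 0.617). *Birc5* had -0.55 ± 0.34 (adjusted p = 0.728), on 2 to 26 wild-type reads a library. *Foxm1*, the transcription factor of the mitotic genes, had -0.32 ± 0.25, *Top2a* -0.16 ± 0.28, *Cdc20*, the activator of the anaphase-promoting complex, -0.08 ± 0.24, and *Cdk1* -0.36 ± 0.37, all with an adjusted p of at least 0.927. A second unplaced wild-type row of the length of *Cdk1* held a mean of 0.0418 FPKM, against 0.249 for the row used. *Ccnb2*, a mitotic B cyclin, was at 0.534, 0.578, 0.425, 0.557 and 0.567 in the mutant, between the 4 low and the 2 high wild-type libraries, with 0.43 ± 0.29 (adjusted p = 0.798).

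The highest value of each of the 9 mitosis markers was in a wild-type library. For 3 of the 9 the lowest value was in a wild-type library too, replicate 4. Over all 25 genes, wild-type libraries, 6 of the 11, held the highest value for 18 and the lowest for 12. The same count over all fitted genes was not made. The highest of the 11 libraries was wild-type replicate 2 for 5 of the 9 markers, replicate 3 for 3 and replicate 6 for 1, and a mutant library for 0. Summed over the 9 markers, these libraries held 7.69, 8.95 and 8.45 FPKM. Wild-type replicates 1, 4 and 5 held 4.57, 4.73 and 5.45, inside the mutant range from 3.98 in replicate 2 to 6.22 in replicate 1. The log2 ratio of the summed means was -0.32, and -0.12 without wild-type replicates 2 and 3. These sums rest largely on *Aurka*, with a mean of 3.91 of 6.64 FPKM in wild-type and 3.10 of 5.32 in the mutant. With each marker given equal weight, as the mean of log2(FPKM + 0.1), the difference was -0.24. Macrophage and stromal markers were high in wild-type replicates 2 and 3 and endothelial markers in replicate 3 alone, with 106 FPKM in replicate 2. In replicate 6 the endothelial, macrophage and stromal sums were 161, 27.1 and 7.65 FPKM. Their part in the result was not tested, and in bulk RNA fewer cells of a type and less RNA per cell cannot be told apart.

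**Figure D3:**
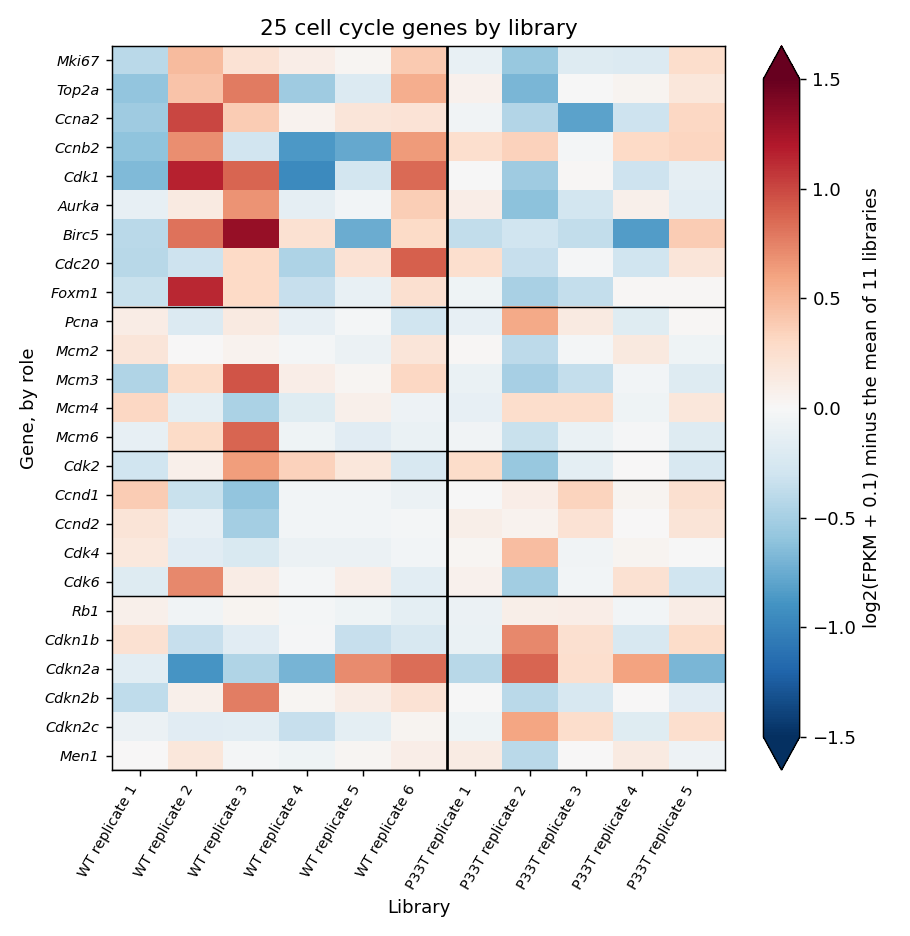
Colour map of 25 genes (rows, by role) in 6 wild-type and 5 PDX1P33T libraries (columns), as log2(FPKM + 0.1) minus the gene's mean over the 11 libraries. Mitosis markers are red in wild-type replicates 2, 3 and 6, except Cdc20 in replicate 2 and Ccnb2 in replicate 3, and mutant replicate 2 stands apart in both directions.

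Of the D cyclins and kinases, *Ccnd1*, *Ccnd2*, *Cdk4* and *Cdk6* summed to 67.2 and 79.7 FPKM in wild-type replicates 3 and 2, the lowest of the 11 libraries, and to 104.7 in wild-type replicate 1, the highest. Wild-type replicates 4, 5 and 6, which differed in their mitosis sums, held 86.4 to 87.1, and the mutant libraries 91.7 to 104.5. Wild-type replicate 1, with the lowest mitosis sum of its group, also had the lowest endothelial sum, 70.9. The log2 ratio of the D cyclin sums was 0.20, and 0.10 without wild-type replicates 2 and 3. Replication genes summed to 24.4 in wild-type replicate 3 and to between 17.2 and 21.9 in the other 10 libraries. The 6 brakes with a wild-type row summed to 57.9 in wild-type replicate 3, to 45.5 to 50.5 in the other wild-type libraries and to 47.7 to 49.3 in the mutant.

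**Figure D4:**
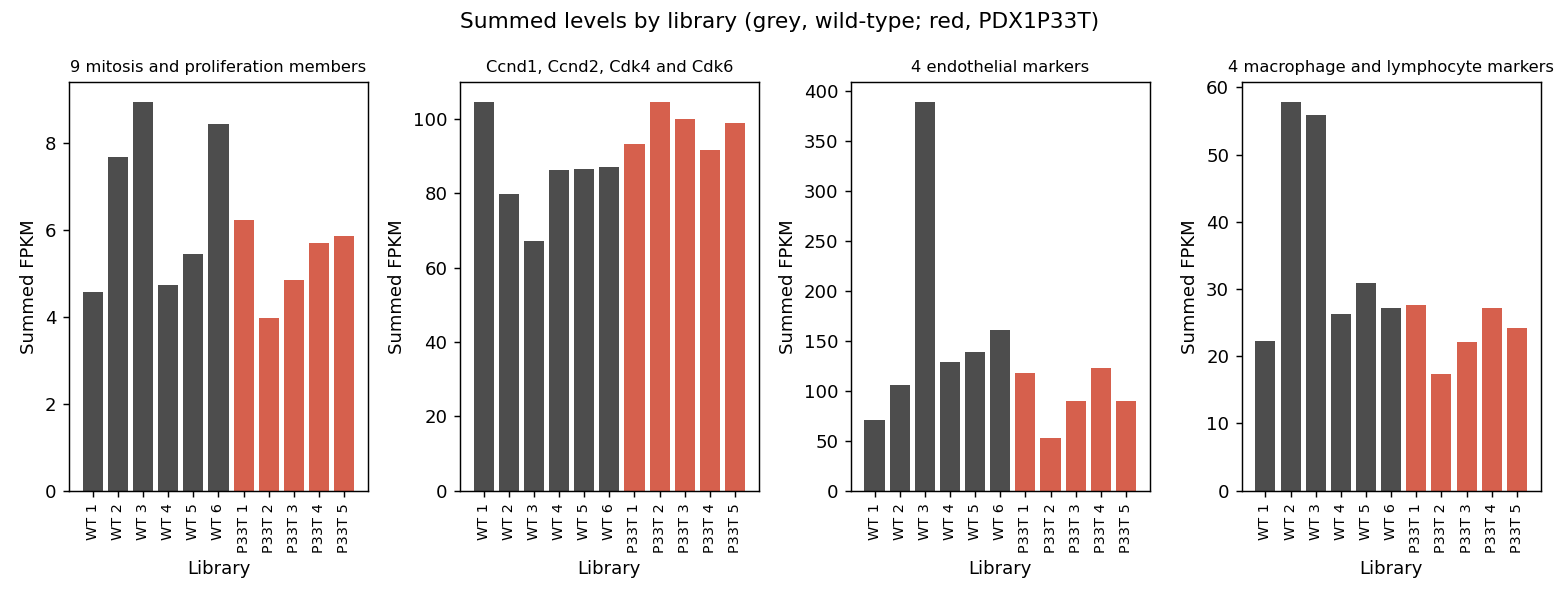
Summed FPKM by library of the 9 mitosis markers, of 4 D cyclin and kinase genes, of 4 endothelial markers and of 4 macrophage and lymphocyte markers (bars; grey, wild-type; red, PDX1P33T). Wild-type replicate 3 is highest for mitosis and endothelial markers (8.95 and 389.6) and lowest for D cyclins and kinases (67.2).

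Mutant replicate 2 was the lowest of the 11 libraries for 11 of the 25 genes and the highest for 5. It was highest for *Pcna* (14.2), *Cdk4* (43.8), *Cdkn1b* (15.7), *Cdkn2a* (1.15) and *Cdkn2c* (5.87), and lowest for *Mki67*, *Top2a*, *Aurka*, *Foxm1*, *Mcm2*, *Mcm3*, *Mcm6*, *Cdk2*, *Cdk6*, *Cdkn2b* and *Men1*. Among genes measured in the mutant alone it had the highest *Ccne2* (1.97, against 0.649 to 1.17) and the lowest *Cdkn1a* (12.2, against 18.3 to 22.4). This library also had the lowest endothelial, macrophage and stromal sums, 53.1, 17.3 and 3.72 FPKM, and the highest sum of the 4 beta cell markers with a wild-type row, 333129 FPKM against 199833 to 289924 in the other 10. Wild-type replicates 2 and 3 were each the highest library for 7 genes. Without mutant replicate 2 the log2 ratio of the mitosis sums was -0.23.

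For the 11 genes without a wild-type row the level could be set beside candidate rows in some cases only. *E2f1*, at 4.18 FPKM in the mutant, had 2 unplaced wild-type rows of its length with means of 3.82 and 4.48. *Ccne2*, at 1.15, had rows at 0.799 and 0.864, and *Plk1*, a mitotic kinase at 0.263, rows at 0.329 and 0.352. *Mcm7*, at 2.92, had a single row at 3.28, which could also belong to another gene of that length. For *Cdkn1a* the 4 candidate rows ran from 6.37 to 30.6, for *Ccne1*, at 1.01, from 0.390 to 0.829, and for *Aurkb* from 0.0328 to 0.178. None was found within 4-fold for *Ccnb1*, the other mitotic B cyclin (0.174 ± 0.0963 in the mutant), *Bub1*, *Mcm5* or *Ccnd3*. No difference between genotypes is given for these genes.

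Other genes of the same pathways gave 0 calls. Of 28 further replication genes 16 had a wild-type row, of 40 mitosis genes 18 and of 51 genes of cell cycle control 25, of which 49 were in the table. At an unadjusted limma p under 0.05, 1 replication gene was higher (*Rfc3*, a clamp loader subunit) and 2 were lower (*Cdt1*, which loads the Mcm ring, and *Chaf1b*, a histone chaperone). Among mitosis genes 2 were higher (*Hmgb2* and *Kif11*) and 1 lower (*Kif23*), and among control genes 4 were higher (*Ccnh*, *Ccng1*, *Ccng2* and *Bmi1*) and 4 lower (*E2f4*, *Kmt2a*, *Jund* and *Prlr*). Median log2 fold changes of the replication, mitosis and control lists were 0.01, 0.04 and 0.11, against -0.05 over all fitted genes. Over all fitted genes 22.3% had such a p, against 14 genes among the 16, 18 and 25 here. Of these 14 genes, all but *Cdt1* and *Chaf1b* were placed through the supplementary list.

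Replication genes with the largest differences among those with at least 100 reads in each genotype were *Cdt1* at -0.47 ± 0.20 (adjusted p = 0.495), *Uhrf1*, which recruits the maintenance DNA methyltransferase, at -0.44 ± 0.32 (adjusted p = 0.869), and *Rfc3* at 0.41 ± 0.17 (adjusted p = 0.485). *Cdt1* measured 0.724 to 1.68 FPKM in wild-type and 0.510 to 0.889 in the mutant. In the mitosis list they were *Hmgb2*, a chromatin protein, at 0.58 ± 0.20 (adjusted p = 0.475), the spindle midzone protein *Prc1* at 0.39 ± 0.19 (adjusted p = 0.556) and *Cdca3* at -0.34 ± 0.39 (adjusted p = 1). In the control list they were *Kmt2a*, a histone methyltransferase that works with menin, at -0.45 ± 0.19 (adjusted p = 0.491), *Ccnh*, the cyclin of the Cdk-activating kinase, at 0.44 ± 0.15 (adjusted p = 0.475) and *Ccng2* at 0.40 ± 0.16 (adjusted p = 0.485). *Kmt2a* ranged from 1.35 to 3.31 FPKM in wild-type and from 1.14 to 1.79 in the mutant, and its partner *Men1* had a log2 fold change of -0.08. The genotypes overlapped in all 9 of these genes.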

How the data were processed

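Per the labels, RNA of whole islets was sequenced in 6 wild-type and 5 PDX1 P33T/P33T libraries. The authors deposited FPKM per library, made per the submitters' processing notes with fastp 0.23.1, HISAT2 2.0.5, featureCounts 1.5.0-p3 and GRCm39 (DESeq2 1.20.0 is also named), and kept genes with a value in 80% of the replicates of a genotype. The 11 sample files held the same values as the series table. The annotation is not given in the sources used here, and both a stranded and an unstranded protocol are described.

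Members and gene lists were chosen with earlier results of these data known. Gene lengths were taken as the smallest number of bases at which all FPKM of a row are whole reads (98.3% of 1673 lengths were recovered). Wild-type rows were placed for 8282 genes: 1712 by the reads listed in the study's supplement, 3914 by length and a level within 4-fold with no other candidate within 16-fold, and 2656 by length and a level within 2-fold with no other within 2.83-fold, each with at least 20 reads in each genotype. The 2-fold rule was added after the values were seen. Without the supplement the 4-fold rule placed 458 of 458 listed genes correctly and the 2-fold rule 314 of 315, with 5 wrong assignments in all. Both rules and the fit were tested on simulated data.

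limma 3.58.1 in R 4.3.3 was fitted with trend and robust options to log2(FPKM + 0.1) of 8243 genes (39 genes at 0 in every mutant library were left out), with no covariate and p-values adjusted over all 19329 gene IDs. For single genes an exact permutation test of mean FPKM was added (two-sided; smallest possible p = 0.0043). Beyond the genes above, every called gene and up to 3 per list with the largest change and at least 100 reads in each genotype were named. Alternatives were other pseudocounts, filters, centring, thresholds, row rules, replicate blocks and leaving out each library. Counting error covers reads only. Python 3.11.15 was used.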

Additional observations from a re-analysis of the deposited data

Results flagged for a closer look

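Within each genotype, a library was marked where its gap to the nearest other library exceeded Dixon's limit, which chance does in about 1 in 20 groups. Of 71 groups of values examined, 8 were marked. In the mutant, *Top2a* was low in replicate 2 (0.126 FPKM, others 0.265 to 0.310), *Ccnb2* was low in replicate 3 (0.425, others 0.534 to 0.578), *Aurkb* was high in replicate 4 (0.110, others 0.0460 to 0.0631, on 4 to 8 reads a library) and *Cdk4* was high in replicate 2 (43.8, others 30.6 to 32.7). In wild-type, *Foxm1* was high in replicate 2 (0.542, others 0.131 to 0.261), as was *Cdk6* (0.217, others 0.0675 to 0.107). *Mcm6* was high in wild-type replicate 3 (7.59, others 3.63 to 4.99), and with it the sum of the 5 replication genes (24.4, others 17.2 to 19.5). The marked wild-type values all lie in replicates 2 and 3, the libraries with the highest macrophage and stromal marker sums, and whether those cells carry the marked transcripts was not tested.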

How the results depend on the processing

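None of the 25 genes with a wild-type row was called under the 26 alternatives, which fitted between 2 and 25 of them, and none of the further cell cycle genes that could be fitted was called. For single genes, 599 of 605 alternative values kept their direction, and 20 of the 25 genes kept it throughout. Many of these values could not turn, because several alternatives altered only thresholds, variances, the adjustment or which other genes were fitted. The block by library name number repeated the values found without wild-type replicate 3. The 599 therefore overstates how far directions were put to a test. Adjusted p-values ran from 0.179 to 1. Leaving out wild-type replicates 2 and 3 together, chosen after seeing the data, turned the log2 fold change of *Top2a* to 0.11, of *Cdk1* to 0.066, of *Cdkn2a* to -0.047 and of *Cdca3* to 0.049. With 1 library left out, *Cdc20* ran from -0.18 to 0.087, turned by wild-type replicate 6, and *Men1* from -0.12 to 0.011, turned by mutant replicate 2. With a replicate block by title number, which drops wild-type replicate 6 because it has no partner, *Cdc20* was 0.087 as well. The numbers do not pair the libraries (correlations of deviations from -0.56 to 0.12 by title number, from -0.56 to 0.13 by library name number), and the block moved the calls over all fitted genes from 2 higher and 2 lower to 0 and 1. Calls over all genes ranged over the other alternatives from 0 to 7 higher and from 1 to 5 lower, the most higher calls (7) with levels allowed within 8-fold. Leaving out 1 library at a time, the log2 ratio of the mitosis sums ran from -0.41 to -0.21, that of the D cyclin sums from 0.14 to 0.26, that of the replication sums from -0.08 to 0.06 and that of the brakes from -0.05 to 0.02. Mitosis markers rest on few reads, and a row placed by level cannot show a difference above its limit.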
